A study of Caenorhabditis elegans with 6 samples.

Results

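The genes described here encode the lysozymes, saposin-like proteins, aspartyl proteases and cathepsin-type cysteine proteases of the nematode Caenorhabditis elegans. They were taken by name as every row called lys, ilys, spp, asp, cpr, cpz or cpl with a plain number, which gave 65 genes of the 41573 names in each count table. They comprise 10 lys and 4 ilys lysozyme genes, 23 spp genes, 19 asp genes, 6 cpr genes, 2 cpz genes and cpl-1. The values are reads of whole larvae, so the label "intestinal" rests on what is known of these families and not on these libraries, and fewer cells of a type cannot be told apart from less RNA per cell.

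The intestine of C. elegans digests bacteria that the worm swallows and is also its main surface of contact with ingested pathogens. Lysozymes cut the bacterial cell wall, saposin-like proteins (caenopores) insert into bacterial membranes, and aspartyl and cysteine proteases break down the released protein in the gut lumen and in lysosomes. The same enzymes therefore serve feeding and defence, and many of them are controlled by GATA factors of the gut such as ELT-2.

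RNA was sequenced from 3 libraries of a strain named hs::control and 3 of a strain named hs::lin-29. By the stated design, heat shock was used to raise LIN-29 early; LIN-29 is a zinc finger factor that sets the time at which the skin adopts its adult fate. All animals were synchronized, kept at 20 °C on the E. coli strain OP50, exposed in the L3 stage at 28 h of feeding to 37 °C for 30 min, and collected after 1 h of recovery. Both strains therefore had the heat shock, and no library without it was analysed here. The promoter behind "hs", the cells in which it acts, what the control strain carries and whether the trials were separate cultures are not given in the labels, so the p-values reflect library-to-library spread that may be technical. Each library held 14553652 to 17303509 counts in genes, of which 1.42% to 1.81% fell in the 65 genes. Levels are CPM, read counts relative to library size after TMM scaling (a correction for library composition), and means are given ± SD with n = 3 per strain. Values in a row are those of replicates 1, 2 and 3 in turn. For lin-29 itself the control libraries held 49.8, 43.8 and 45.8 CPM, and the induced libraries 131, 517 and 339 CPM, a log2 fold change of 2.82 (SE 0.41, adjusted p 0.00462 in edgeR). In a principal component analysis of all genes tested, replicate 1 of hs::control had a second coordinate of 45.7, where the other control libraries had -21.4 and -17.7.

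Of the 65 genes 45 had enough reads to be tested, and the size of their change between the strains, without its sign, had a median of 0.18 on the log2 scale, against 0.17 over all genes tested. With edgeR's quasi-likelihood test and Benjamini-Hochberg adjustment over all 13045 genes tested, none rose and 1 fell, the saposin-like gene spp-20. spp-20 was kept by the filter on low counts only because of its level in hs::control. At its level in hs::lin-29 it would not have been tested, so the filter favoured a fall. Over all genes tested 6.60% passed, 2.46% higher and 4.14% lower, against 2.22% of the 45. At an unadjusted p under 0.05 there were 10 of the 45 genes, 4 higher and 6 lower (22.2%, against 18.2% of all genes tested, 8.05% higher and 10.1% lower). DESeq2 called 1 higher and 5 lower (13.3%, against 8.78% of all genes, 3.22% higher and 5.56% lower). limma-voom called spp-20 alone, where 6.22% of all genes passed. The libraries of the strains did not overlap for 8 of the 45 genes, 4 higher and 4 lower (17.8%, against 23.2% of all genes tested, 11.3% higher and 11.9% lower). The median log2 fold change was 0.01 over the 45 genes and 0.01 over all genes tested. These shares and medians lie near those of all genes, and nothing particular to the 45 is read from them.

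How far a change could have gone unseen is given by the 95% interval of each log2 fold change. It lay within a 2-fold change in both directions for 35 of the 45 genes (77.8%, against 74.0% of all genes tested) and within 1.5-fold for 24 (53.3%, against 49.2%). The intervals of the other 10 reached past 2-fold, and besides spp-20 the estimates nearest to or past that size were those of cpr-2 (1.07), asp-17 (-1.02) and asp-13 (-0.97). Of the 45 genes 29 reached a mean of 50 CPM, a level chosen after the values were seen. Of these 27 had an interval within 2-fold (93.1%, against 95.8% of all genes at that level) and 21 within 1.5-fold (72.4%, against 82.7%). The other 2 were those of asp-12, which reached up to 1.16, and of spp-2, which reached down to -1.01. The log2 fold changes of these 29 genes ran from -0.43 to 0.74, and 0 of them passed, where 5.32% of all genes at that level did. The estimates scatter on both sides of 0, with 23 of the 45 above and 22 below.

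**Figure D1:**
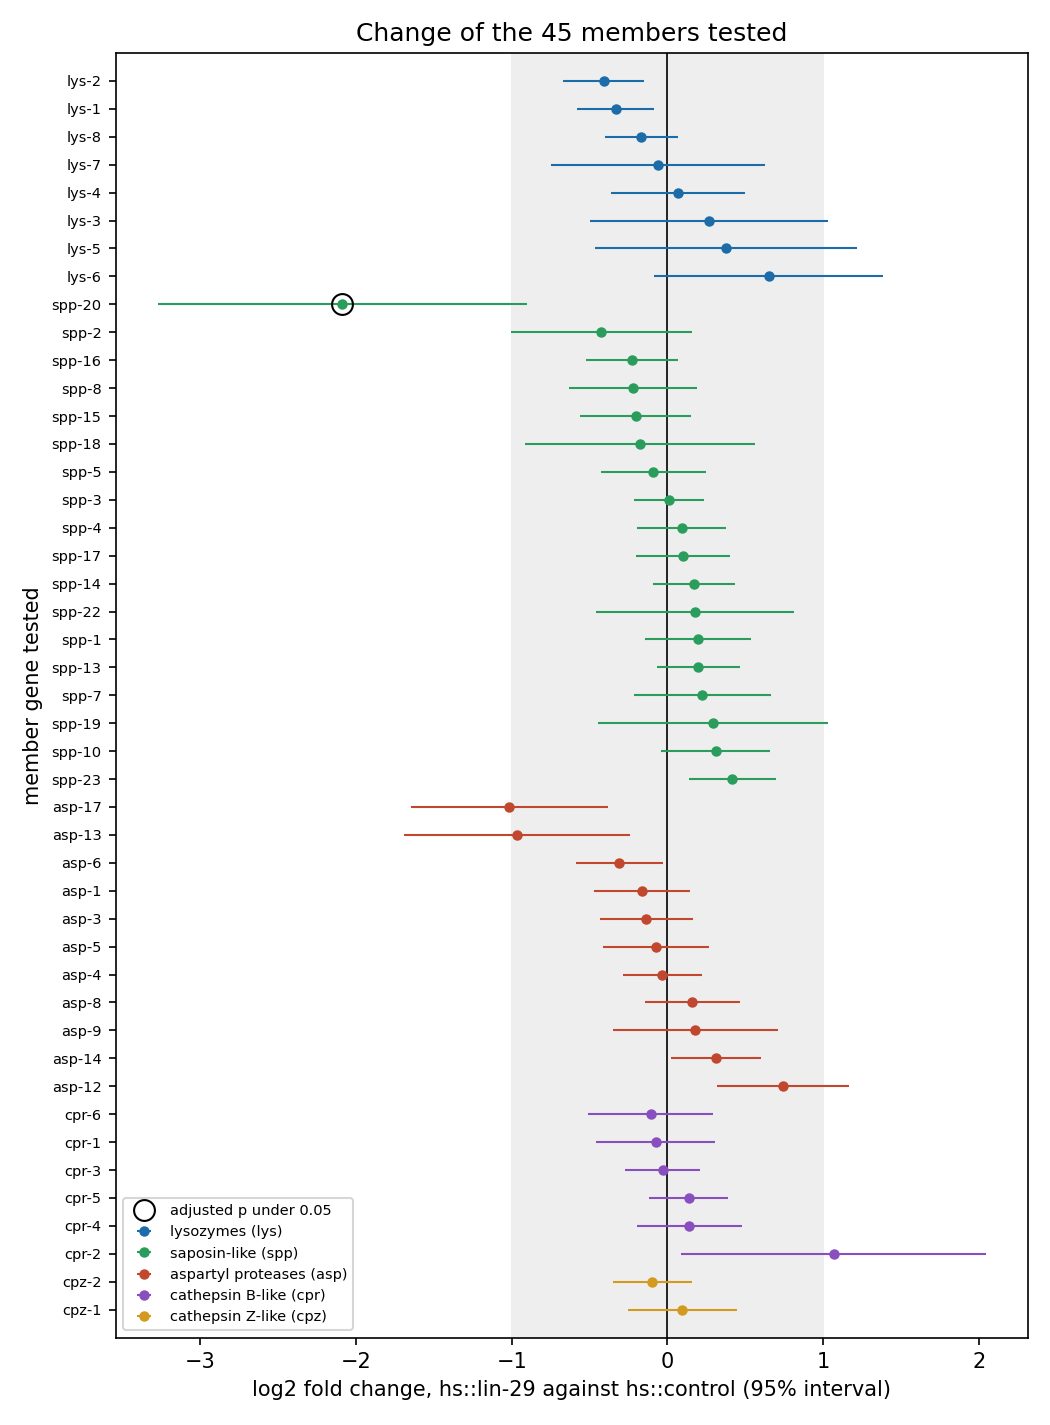
Log2 fold change of hs::lin-29 against hs::control for the 45 genes tested, 1 row per gene, coloured by family; points are edgeR estimates, bars their 95% intervals, the grey band a change of up to 2-fold and the ring an adjusted p under 0.05. Most bars lie inside the band, and the ringed gene is spp-20 at -2.09, which passed the filter on low counts through hs::control alone.

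**Figure D2:**
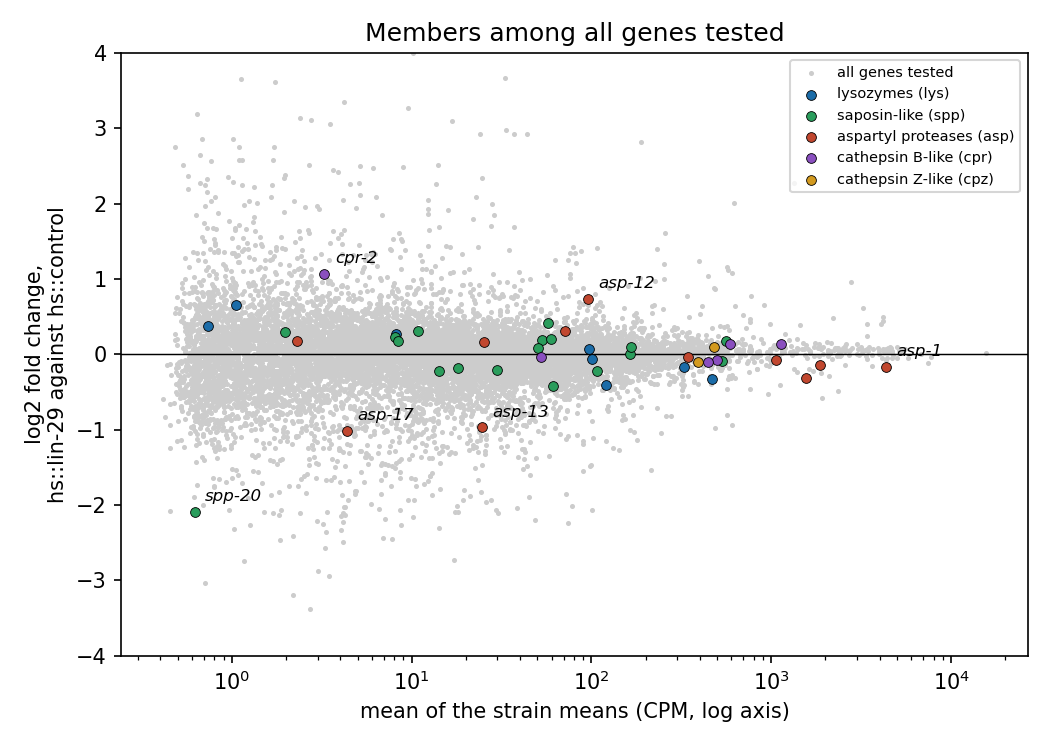
Log2 fold change (vertical axis) against the mean of the strain means in CPM (horizontal log axis) for all 13045 genes tested (grey) and the 45 genes of the families (coloured); 23 grey genes beyond a log2 fold change of 4 are off the plot. The abundant enzymes on the right lie near 0, and the larger estimates belong to genes of low or middle level.

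Levels between genes were compared per length, as CPM per kilobase of annotated exon. The aspartyl protease gene asp-1, known as a gut-specific enzyme, was the highest at 3846 CPM per kilobase in hs::control and 3436 in hs::lin-29. Next came spp-14 (1487 and 1676), spp-5 (1480 and 1390), asp-3 (1333 and 1212) and asp-6 (1344 and 1085), in the order of their mean over both strains. At the other end of the tested genes, lys-5 was lowest in hs::control at 0.913 CPM per kilobase (1.19 in hs::lin-29), and spp-20 was lowest in hs::lin-29 at 0.444 (2.01 in hs::control). By reads, the 11 tested and 8 untested asp genes took 58.6% of the CPM of the 65 genes, the cpr genes 17.01%, the spp genes 11.9%, the lys genes 7.02% and the cpz genes 5.43%. The 5 genes listed at 0 in every library, cpl-1 among them, add nothing to these shares. Whether their RNA was truly absent is not known.

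Summed over each family, the libraries of the strains overlapped. The lysozyme (lys) sum was 1214, 1338 and 1082 CPM in hs::control and 1137, 1009 and 957 CPM in hs::lin-29. The asp sum was 11020, 9979 and 8644 CPM in hs::control and 8600, 9804 and 8201 CPM in hs::lin-29. The spp sum was 1885 ± 155 and 1928 ± 220 CPM, the cpr sum 2667 ± 313 and 2773 ± 170 CPM, and the cpz sum 866 ± 79.7 and 872 ± 121 CPM. The means of lys and asp were lower in hs::lin-29 and those of spp, cpr and cpz higher, in each case with at least 1 library of each strain inside the range of the other. No test was made of the sums.

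**Figure D3:**
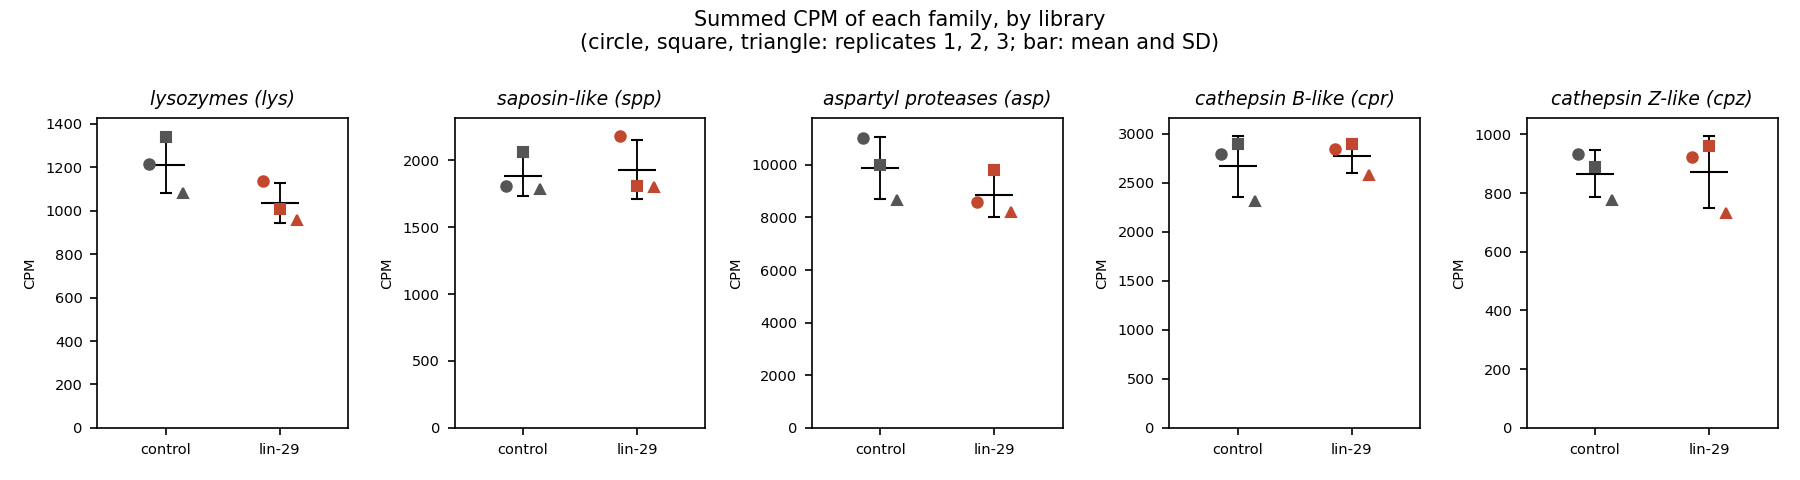
Summed CPM of the lys, spp, asp, cpr and cpz families (vertical axes from 0) in each library of hs::control (grey) and hs::lin-29 (red); symbols are replicates 1 to 3 and bars the mean and SD. In every family the points of the strains overlap.

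Among the lysozymes, 8 of the 10 lys genes were tested and none passed with edgeR, while 2 had an unadjusted p under 0.05 (18.2% of all genes tested did), DESeq2 called both (8.78% of all genes), and limma-voom called neither. These 2, lys-1 and lys-2, are neighbours on chromosome V and are both known as enzymes of the infection response. The level of lys-1 was 502, 582 and 475 CPM in hs::control and 423, 401 and 414 CPM in hs::lin-29, so every hs::lin-29 library lay below every control library. Its log2 fold change was -0.33 (SE 0.11, 95% interval -0.58 to -0.08, adjusted p 0.128 in edgeR and 0.0327 in DESeq2). The level of lys-2 was 134, 156 and 125 CPM in hs::control and 113, 94.2 and 104 CPM in hs::lin-29, again without overlap. Its log2 fold change was -0.41 (SE 0.12, adjusted p 0.0748 in edgeR and 0.0221 in DESeq2).

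The third lysozyme gene at that locus, lys-3, went from 7.40 ± 2.71 to 8.93 ± 3.92 CPM and overlapped between the strains. The lysozyme gene lys-7, a known target of DAF-16 and an effector against several pathogens, held 90.6, 135 and 82.2 CPM in the controls and 149, 82.9 and 63.2 CPM in hs::lin-29. It varied within each strain more than between them, 1.64-fold among control libraries and 2.36-fold among those of hs::lin-29, and its log2 fold change was -0.06 with a 95% interval of -0.75 to 0.63. lys-8, known as a target of the DBL-1 pathway, averaged 348 ± 25.7 and 309 ± 16.8 CPM (log2 fold change -0.17, SE 0.10). Of the cluster of lys-4, lys-5 and lys-6 on chromosome IV, lys-4 was the abundant gene at 94.3 ± 20.96 and 98.8 ± 19.97 CPM. The largest estimate among the lysozymes was that of lys-6 (log2 fold change 0.65, SE 0.32, adjusted p 0.350 in edgeR), at 0.855, 0.878 and 0.728 CPM in hs::control and 1.32, 1.08 and 1.46 CPM in hs::lin-29. lys-5 passed the filter on low counts through hs::lin-29 alone, so its estimate of 0.37 was favoured by that filter. The untested lys-9 and lys-10 had at most 3 and 7 counts in a library.

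The invertebrate-type lysozymes ilys-1 to ilys-3 were barely detected. ilys-3, known as an enzyme that digests bacteria in the pharynx and gut, had 7, 11 and 6 counts in the hs::control libraries and 11, 7 and 6 in those of hs::lin-29. ilys-1 and ilys-2 reached no more than 10 counts per library. ilys-5 is listed at 0 in every library, and no level is read from it. None of the 4 ilys genes was tested. The 3 genes ilys-1 to ilys-3 lie side by side on chromosome IV.

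Of the 23 saposin-like genes 18 were tested, and spp-20 fell. It had 18, 15 and 17 counts in hs::control and 4, 1 and 6 in hs::lin-29, or 1.28, 0.823 and 0.952 against 0.240, 0.0720 and 0.364 CPM. Its fall was 4.25-fold (log2 fold change -2.09, SE 0.52, adjusted p 0.0490 in edgeR, 0.0467 in DESeq2 and 0.0484 in limma-voom), and the libraries did not overlap. spp-20 passed the filter on low counts through hs::control alone, so its estimate was favoured by that filter. With any 1 of the 6 libraries left out the call was lost, at an adjusted p of 0.0717 to 0.148 and a log2 fold change of -2.59 to -1.72. Its neighbour on chromosome V, spp-19, stood at 1.78 ± 0.204 and 2.17 ± 0.843 CPM.

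The next saposin-like gene by p was spp-23, at 53.1, 42.6 and 51.4 CPM in hs::control and 72.8, 56.8 and 66.7 CPM in hs::lin-29. All hs::lin-29 libraries lay above all control libraries, with a log2 fold change of 0.42 (SE 0.12) and an adjusted p of 0.0914 in edgeR (0.0107 to 0.292 across the other settings). Its neighbour on chromosome I, spp-17, stood at 161 ± 24.1 and 172 ± 19.04 CPM. The abundant caenopore genes moved little. spp-5, whose product kills E. coli in the gut, was at 492, 637 and 514 CPM in hs::control and 606, 444 and 493 CPM in hs::lin-29, with overlapping libraries and a 95% interval of -0.43 to 0.25. spp-14, the saposin-like gene with the most reads, was at 529 ± 36.6 and 597 ± 66.6 CPM (95% interval -0.09 to 0.44). spp-3 had the estimate closest to 0 of all 45 genes (log2 fold change 0.01, 95% interval -0.21 to 0.24), at 164 ± 10.3 and 165 ± 11.5 CPM. spp-1, encoding caenopore-1, was at 50.7, 51.4 and 46.6 CPM in hs::control and 71.7, 47.8 and 50.6 CPM in hs::lin-29, where replicate 1 was high and the others lay in the control range.

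spp-2 and spp-18 varied most between control libraries among the saposin-like genes above 15 CPM. spp-2 stood at 59.8, 99.7 and 50.1 CPM in hs::control, and spp-18 at 10.4, 29.2 and 17.98 CPM, a 2.81-fold range. Replicate 2 was the highest control library for both. In hs::lin-29 they were at 52.0 ± 12.2 and 17.03 ± 3.82 CPM and overlapped the controls. spp-10, which resembles prosaposin, had a log2 fold change of 0.31 (95% interval -0.04 to 0.66). Of the others, spp-8 was at 115.5 ± 11.98 and 98.95 ± 26.58 CPM, spp-13 at 55.1 ± 5.44 and 63.2 ± 7.62 CPM, and spp-4 at 48.9 ± 4.098 and 52.0 ± 8.40 CPM. spp-15 was at 31.98 ± 6.11 and 27.8 ± 3.89 CPM, and spp-16 at 15.2 ± 1.054 and 13.04 ± 1.197 CPM. The lowest of these were spp-22 at 7.84 ± 3.03 and 8.92 ± 1.44 CPM and spp-7 at 7.48 ± 1.71 and 8.71 ± 1.04 CPM. All 7 overlapped between the strains. The 5 untested saposin-like genes, spp-6, spp-9, spp-11, spp-12 and spp-21, had at most 22 counts in any library.

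Among the aspartyl proteases 5 of the 11 genes tested had an unadjusted p under 0.05, which 18.2% of all genes tested had, while 0 passed with edgeR, where 6.60% of all genes did. limma-voom called 0 of the 11, and DESeq2 called 3 (8.78% of all genes), asp-12 higher and asp-13 and asp-17 lower. asp-12 was at 68.2, 68.8 and 76.8 CPM in hs::control and 158, 110 and 89.5 CPM in hs::lin-29. Every hs::lin-29 library lay above the controls. The difference was 1.67-fold (log2 fold change 0.74, SE 0.19) with an adjusted p of 0.0511 in edgeR and 0.00364 in DESeq2. The adjusted p was 0.0181 without hs::lin-29 replicate 3 and ran from 0.00364 to 0.166 over the alternatives.

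asp-12 lies in a cluster on chromosome V with asp-5 and asp-6, whose estimates lay below 0. asp-6 was at 1795, 1854 and 1495 CPM in hs::control and 1332, 1520 and 1302 CPM in hs::lin-29, where replicate 2 lay just above the lowest control (log2 fold change -0.31, SE 0.12, adjusted p 0.221 in edgeR). asp-5 was at 1089 ± 177 and 1034 ± 148 CPM (log2 fold change -0.08, SE 0.15). The difference between neighbours was not tested.

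asp-17 and asp-13 had the lowest estimates of the aspartyl proteases. asp-17 was at 8.12, 4.55 and 4.87 CPM in hs::control and 2.22, 3.38 and 3.04 CPM in hs::lin-29, without overlap (log2 fold change -1.02, SE 0.28, adjusted p 0.0705 in edgeR and 0.0237 in DESeq2). asp-13 was at 45.5, 21.01 and 31.5 CPM in hs::control and 14.2, 24.3 and 11.7 CPM in hs::lin-29. Here replicate 2 of hs::lin-29 lay above replicate 2 of hs::control, and the log2 fold change was -0.97 (SE 0.32, adjusted p 0.131 in edgeR and 0.0218 in DESeq2). asp-14 was at 61.6, 58.7 and 71.1 CPM in hs::control and 77.7, 91.9 and 68.3 CPM in hs::lin-29, with overlap (log2 fold change 0.31, SE 0.13).

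The aspartyl proteases with known roles showed small estimates. asp-1 was at 5166, 4571 and 4004 CPM in hs::control and 3880, 4618 and 3776 CPM in hs::lin-29, which overlap (log2 fold change -0.16, 95% interval -0.47 to 0.14). asp-3 and asp-4, the cathepsin D-like proteases needed for necrotic death of neurons, were at 1949 ± 273 and 1772 ± 141 CPM and at 346 ± 25.1 and 338 ± 32.1 CPM. The interval of asp-4 ran from -0.29 to 0.22. asp-8 was at 23.76 ± 3.997 and 26.59 ± 1.51 CPM and asp-9 at 2.16 ± 0.203 and 2.45 ± 0.204 CPM, both with overlap. asp-11, which RefSeq lists as a pseudogene, had too few reads for the test, with 3, 6 and 3 counts in hs::control and 14, 11 and 10 in hs::lin-29. These did not overlap, and with no filter on low counts its log2 fold change was 1.63 (SE 0.62) and its adjusted p 0.156 in edgeR. The untested asp-7, asp-15, asp-16 and asp-18 never exceeded 4 counts in a library, and asp-2, asp-10 and asp-19 are listed at 0 in all 6.

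**Figure D4:**
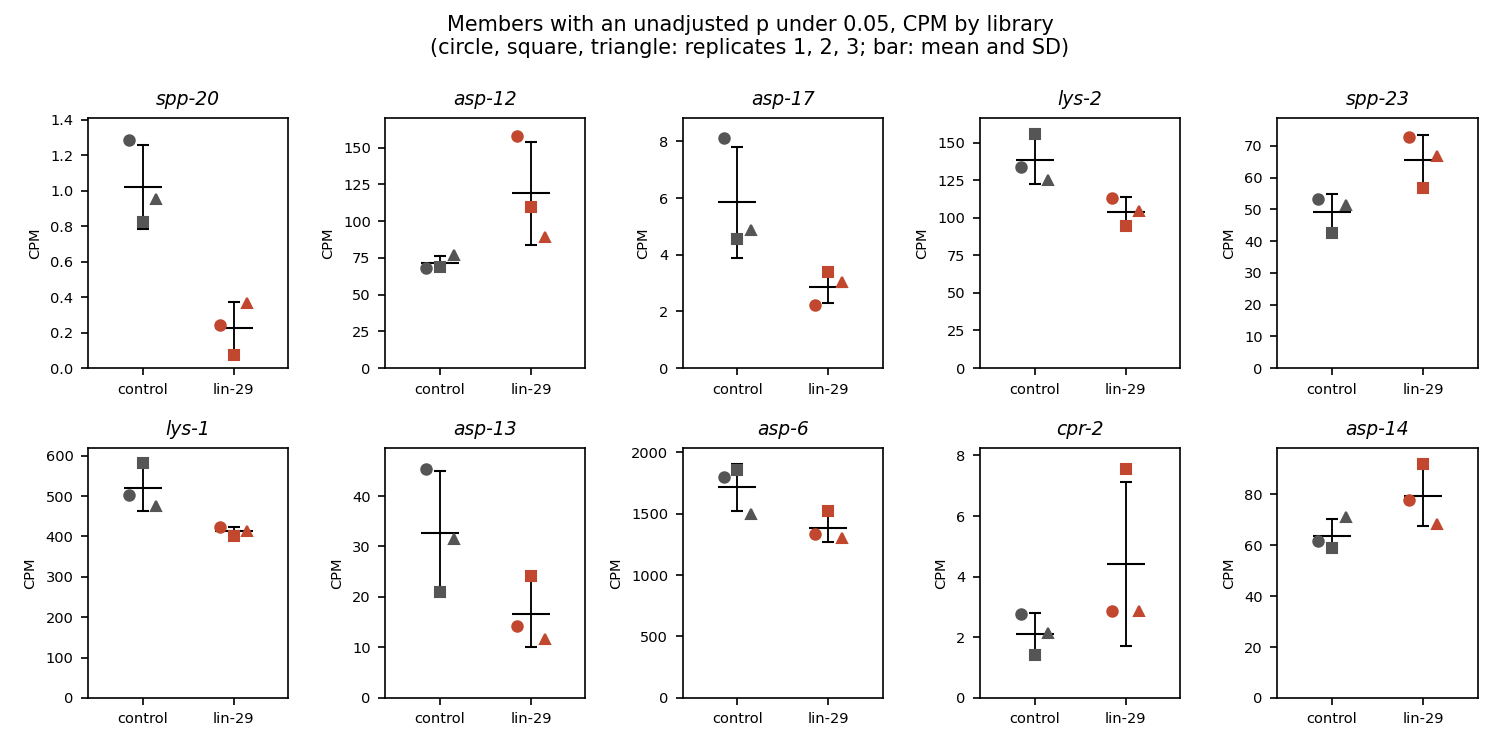
CPM in each library (vertical axes from 0) of the 10 genes with an unadjusted p under 0.05, ordered by p; grey is hs::control, red hs::lin-29, symbols are replicates 1 to 3 and bars the mean and SD. The strains are separate for spp-20, asp-12, asp-17, lys-2, spp-23, lys-1 and cpr-2 and overlap for asp-13, asp-6 and asp-14. The 10 were picked by p on these same libraries, so the separation adds no support.

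Most of the cysteine proteases had small estimates. Of 6 cpr genes and 2 cpz genes, all tested, 0 passed with edgeR, DESeq2 or limma-voom, where 6.60%, 8.78% and 6.22% of all genes did. An unadjusted p under 0.05 was found for 1 of the 8 (18.2% of all genes tested had one). The intervals of 7 of the 8 lay within 1.5-fold. These 7 had means of at least 50 CPM, where 82.7% of all genes had such an interval. cpr-5, the cathepsin B-like gene with the most reads, was at 1139, 1116 and 989 CPM in hs::control and 1126, 1301 and 1137 CPM in hs::lin-29 (log2 fold change 0.14, 95% interval -0.12 to 0.39). cpr-1, a gut cysteine protease, was at 510 ± 102 and 484 ± 76.8 CPM, and cpr-6 at 461 ± 72.8 and 428 ± 91.0 CPM. cpr-4, known as a secreted protease released after irradiation, was at 577, 665 and 436 CPM in hs::control and within 613 to 623 CPM in all libraries of hs::lin-29. cpr-3 was at 52.9 ± 4.797 and 51.8 ± 4.70 CPM.

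The gene outside those bounds was cpr-2, at 2.78, 1.43 and 2.13 CPM in hs::control and 2.88, 7.56 and 2.85 CPM in hs::lin-29. Replicate 2 of hs::lin-29 was high and the other libraries of that strain lay just above the highest control (log2 fold change 1.07, SE 0.43, adjusted p 0.225 in edgeR). Without that library its log2 fold change was 0.45, with an adjusted p of 0.638. cpz-1, a cathepsin Z-like protease of the skin that is needed for molting, was at 526, 469 and 396 CPM in hs::control and 519, 565 and 401 CPM in hs::lin-29, with overlap (log2 fold change 0.09, 95% interval -0.26 to 0.45). cpz-2 was at 402 ± 19.7 and 377 ± 38.7 CPM. The cathepsin L-like gene cpl-1, which acts in yolk processing and molting, is listed at 0 in every library. So are 1954 of 17365 protein-coding genes, some of which most cells use, and no level is read from it.

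Within the strains the 45 genes varied about as much as genes in general. The ratio of the highest to the lowest library had a median of 1.29 among the hs::control libraries and 1.31 among those of hs::lin-29, against 1.27 and 1.27 over all genes tested. It was at least 2 for 4 genes in hs::control and 6 in hs::lin-29. In hs::control replicate 2 was the highest library for 23 of the 45 genes (51.1%, against 31.97% of all genes tested), and in hs::lin-29 replicate 1 was so for 24 (53.3%, against 36.8%). For lys-7 and spp-2, and for other genes such as asp-1, spp-5 and cpr-1, the libraries of either strain differed among themselves by more than the strain means did.

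The genes are also grouped along the chromosomes. Of the 63 that were found in the annotation 28 lie on chromosome V, 15 on X and 12 on IV, and 34 have another gene of these families within 2 coding genes to either side. For 8 of them an exon overlaps a coding gene on the opposite strand, namely asp-2, asp-4, cpz-2, lys-8, spp-1, spp-15, spp-16 and spp-19, and the strand setting of the counting is not given in the sources used here, so reads of such pairs may not be told apart. spp-20 and the other 9 genes with an unadjusted p under 0.05 are not among these 8.

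Other genes of digestion and gut defence were set beside the families, in 6 lists. Of 133 such genes tested 5 rose and 6 fell (8.27%, against 6.60% of all genes tested), and their median log2 fold change was -0.06. elt-2, the main GATA factor of the intestine, rose from 9.97, 14.3 and 13.8 CPM in hs::control to 42.0, 32.03 and 28.6 CPM in hs::lin-29 (2.69-fold, log2 fold change 1.43, SE 0.18, adjusted p 0.00256 in edgeR).

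Of 25 other peptidases, glycosidases, peptide carriers and cystatins tested 2 rose and 0 fell. pcp-3, which encodes a lysosomal-type carboxypeptidase, rose from 59.4, 41.6 and 45.9 CPM to 131, 142 and 108 CPM (2.60-fold, log2 fold change 1.38, SE 0.15, adjusted p 0.00131 in edgeR). lap-2, a leucine aminopeptidase gene, rose from 289 ± 27.2 to 407 ± 23.3 CPM (1.41-fold, adjusted p 0.0291 in edgeR). At an unadjusted p under 0.05 there were 5 of the 25, where 18.2% of all genes tested passed. The rise of pcp-3 kept its call under each of the 16 alternatives, while that of lap-2 was lost without any 1 library except hs::control replicate 1 (adjusted p 0.0522 to 0.129).

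Of 36 lysosomal membrane and enzyme genes 1 rose and 2 fell (8.33%, against 6.60% of all genes tested). An unadjusted p under 0.05 was found for 6 of the 36, where 18.2% of all genes tested had one. crn-7, a DNase II-type nuclease gene, rose from 23.7 ± 2.86 to 40.4 ± 7.41 CPM (1.71-fold, adjusted p 0.0165 in edgeR). gana-1, encoding an alpha-galactosidase-type enzyme, fell from 76.8 ± 16.8 to 49.4 ± 2.93 CPM (1.56-fold), and ncr-1, a homologue of the cholesterol transporter NPC1, fell from 72.2 ± 3.24 to 51.4 ± 7.25 CPM (1.41-fold). Leaving out hs::control replicate 3 ended the call of crn-7 (adjusted p 0.0938). That of gana-1 was lost without any library but hs::control replicate 1 (up to 0.142), and also with upper quartile scaling (0.0679), library totals (0.0784) and limma-voom (0.0548). The call of ncr-1 was lost without any library but hs::lin-29 replicate 2 (up to 0.123). Of 19 genes of the proton pump that acidifies lysosomes (vha) 0 passed with edgeR, DESeq2 or limma-voom and 0 had an unadjusted p under 0.05. Their summed level was 7993 to 9111 CPM in hs::control and 7457 to 8825 CPM in hs::lin-29.

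Of 28 tested genes of the signalling that controls gut defence, 3 fell besides the rise of elt-2 (14.3%, against 6.60% of all genes tested). At an unadjusted p under 0.05 there were 13 of the 28, where 18.2% of all genes tested passed. DESeq2 called 6 of the 28 (8.78% of all genes) and limma-voom 4 (6.22%). zip-2, a bZIP factor of the response to Pseudomonas, fell from 776, 774 and 822 CPM to 349, 457 and 426 CPM (1.93-fold, log2 fold change -0.94, SE 0.12, adjusted p 0.00248 in edgeR). The stress kinase gene kgb-1 fell from 154 ± 9.72 to 112 ± 6.13 CPM (1.37-fold) and the Smad gene sma-2, of the DBL-1 pathway, from 21.1 ± 1.69 to 13.9 ± 0.848 CPM (1.52-fold). Of the 28 genes 23 had estimates below 0, with a median log2 fold change of -0.21 against 0.01 over all genes tested. The list has 39 genes with a row, of which 9 are listed at 0 in every library. Among these 9 are daf-16, hlh-30, atf-7 and nhr-49, and no level is read from them. The summed level of the list was 1870 to 1993 CPM in hs::control and 1330 to 1468 CPM in hs::lin-29, without overlap. Of all genes tested, taken singly, 23.2% did not overlap. The mean sum of hs::lin-29 minus that of hs::control was -543 CPM, of which zip-2 alone gave -379.7 CPM. Without zip-2 the sums were 1094 to 1173 CPM and 957 to 1011 CPM, again without overlap. Leaving out replicate 2 of hs::control or replicate 3 of hs::lin-29 ended the call of kgb-1 (adjusted p up to 0.103). For sma-2 this held for control replicates 2 and 3 and for hs::lin-29 replicate 2 (up to 0.0759).

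Of 20 other gut defence effectors tested 1 rose and 1 fell with edgeR, where 6.60% of all genes tested passed. Estimates were below 0 for 13 of the 20 and above 0 for 7. Their median log2 fold change was -0.34, against 0.01 over all genes tested. At an unadjusted p under 0.05 there were 8 of the 20, where 18.2% of all genes tested passed. DESeq2 called 5 of the 20 (8.78% of all genes) and limma-voom 2 (6.22%). cth-2, a cystathionine gamma-lyase gene, rose from 153 ± 25.7 to 299 ± 14.7 CPM (1.96-fold, adjusted p 0.00288 in edgeR). abf-5, of the antibacterial factor family, fell from 9.76, 15.9 and 10.3 CPM to 3.48, 5.18 and 4.62 CPM (2.71-fold, log2 fold change -1.44, SE 0.24, adjusted p 0.00775 in edgeR). Both calls held under each of the 16 alternatives, as did those of elt-2 and zip-2. Of 5 yolk protein genes, which the adult intestine makes, 0 passed with edgeR, DESeq2 or limma-voom or at an unadjusted p under 0.05, and their sum was 24.2 to 54.6 CPM in hs::control and 24.5 to 47.7 CPM in hs::lin-29.

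**Figure D5:**
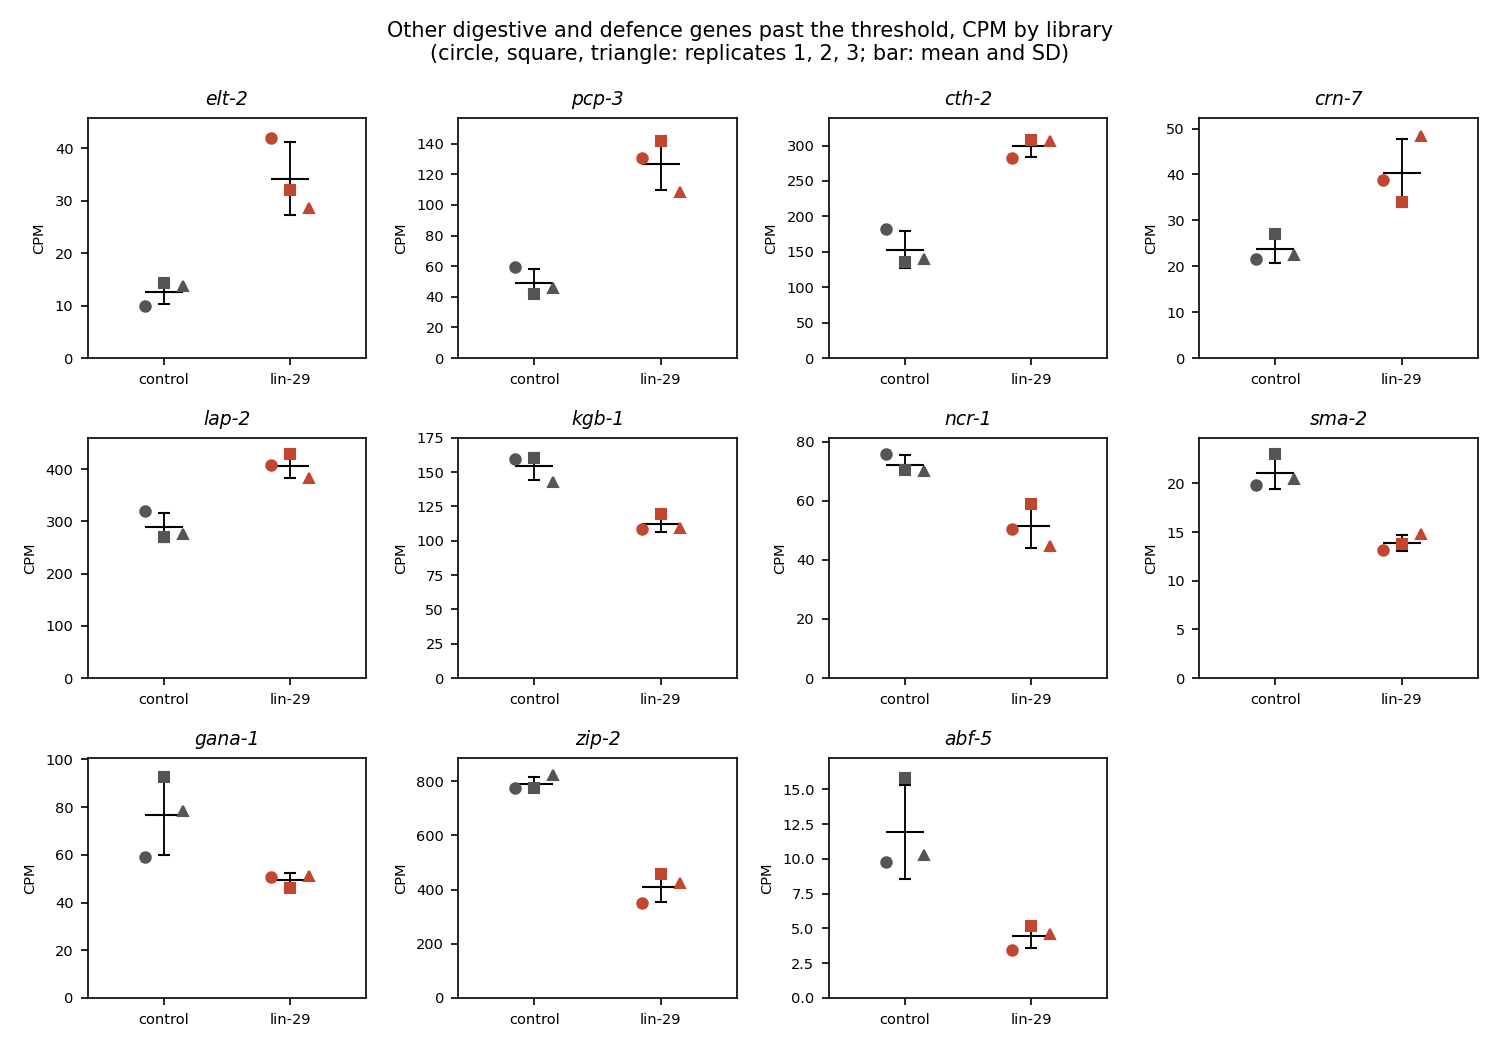
CPM in each library (vertical axes from 0) of the 11 other digestive and defence genes past the threshold, ordered from the largest rise to the largest fall; grey is hs::control, red hs::lin-29, symbols are replicates 1 to 3 and bars the mean and SD. elt-2 and pcp-3 rise most and abf-5 falls most. The strains do not overlap in any of the 11, where 23.2% of all genes tested do not. The 11 were picked by the test on these same libraries, so their separation adds no support.

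Markers of the tissues in a whole larva were read beside these results. Of 16 intestine markers tested outside the families elt-2 rose and ifd-2, an intermediate filament gene, fell 1.57-fold (12.5%, against 6.60% of all genes tested). Of the 16, 13 were below 0, with a median of -0.17 against 0.01 over all genes tested. An unadjusted p under 0.05 was found for 6 (18.2% of all genes tested had one), and DESeq2 called 4 (8.78% of all genes). The sum of the intestine markers was 2674 to 3331 CPM in hs::control and 2446 to 2991 CPM in hs::lin-29, and elt-7 is listed at 0. The sum of 10 hypodermis markers was 6943 to 9748 CPM in hs::control and 9825 to 11800 CPM in hs::lin-29, without overlap, with nhr-25 higher and elt-1, elt-3 and sqt-3 listed at 0. Without the collagen gene dpy-13, which had the largest difference, the sums overlapped, at 4106 to 5585 CPM and 5382 to 6537 CPM. Of the muscle, pharynx, neuron, germ line and coelomocyte markers 0 of 32 passed with edgeR and 2 had an unadjusted p under 0.05. Of these 32, 23 were above 0 and 9 below, with a median of 0.07. The summed levels overlapped in each tissue. The part of these markers in the results above was not tested.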

How the data were processed

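The authors deposited 1 table per library with the raw count of reads for each gene, neither normalized nor pooled. Per the submitters' processing notes the tools were bcl2fastq 2.18, STAR 2.5.2b, HTSeq 0.6.1p1, DESeq2 1.12.3 and R 3.3.2, with the build ce10. What each tool did, which annotation was used and whether strand was read is not given in the sources used here. Reads in rows that name no gene (39.7% to 41.8% of each library, reads with several alignments among them) stayed out of library sizes and tests, so genes with near-identical copies can be undercounted.

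The 65 genes and the lists beside them were chosen with earlier results of these data known. Another 12 names of the same pattern occur in the annotation (Ensembl release for WBcel235, used for gene identities, chromosome, neighbours and exon length, with no coordinates printed) and were not analysed here. Of the 65, 63 matched it. Genes were kept by filterByExpr (minimum count 10, minimum total 15), scaled by TMM and tested with edgeR 4.0.16 (quasi-likelihood F test, robust, two-sided, strain as sole term, Benjamini-Hochberg, threshold 0.05). SEs were derived from the F statistic and the log2 fold change, and 95% intervals use the test's degrees of freedom; both are approximate. The biological coefficient of variation was 14.7%, and replicates differed beyond counting noise (at least 11.2 times the chi-square expected per degree of freedom).

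Genes named are lin-29, the 65 genes, in full those past the threshold or with an unadjusted p under 0.05 and the extremes of each family, and from each list up to 4 genes past the threshold with at least 1 CPM. Other genes of the families were described after their values were seen. Alternatives were other scalings and filters, DESeq2 1.42.0, limma-voom 3.58.1, a fit that was not robust, scaling without the 20 most abundant genes, a replicate block and each library left out. The test was tried on simulated counts. R 4.3.3, Python 3.11.15, pandas 2.3.3 and matplotlib 3.10.9 were used.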

Additional observations from a re-analysis of the deposited data

How the results depend on the processing

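The count of family genes that rose was 0, and 1 with no filter on low counts (spp-23), with DESeq2 and with no robust estimation (asp-12 in both). The count that fell was 1, and 0 with upper quartile scaling and with library totals. It was also 0 with at least 1 CPM in 3 libraries, where spp-20 was not tested. It was 3 with no filter and 5 with DESeq2. Both directions together, DESeq2 called 13.3% of the 45 family genes, against 8.78% of all genes. With no filter 60 family genes were tested. With each library left out in turn, 0 to 1 rose (asp-12 without hs::lin-29 replicate 3) and 0 to 0 fell, of 47 to 49 family genes tested. How many of all genes were tested with no filter or with a library left out is not given here. The counts under these settings are therefore not set against a share of all genes. None of the 10 genes with an unadjusted p under 0.05 changed sign under the alternatives run. The 11 calls among other digestive and defence genes became 7 to 10 with a library left out, 7 without hs::control replicate 2 and 7 without replicate 3. lin-29 had a log2 fold change of 2.83 and an adjusted p of 0.102 with no filter. Over all genes 861 passed, against 490 and 459 when control replicate 2 or 3 was left out and 547 when replicate 3 of hs::lin-29 was; 894 passed without control replicate 1, 1151 with no filter and 1145 with DESeq2. The cause of these differences was not tested.

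Whether libraries with the same trial number belong together is not given in the labels. Same-numbered libraries had deviations from their strain means that correlated at 0.01, -0.36 and 0.24. Control replicate 1 correlated best with hs::lin-29 replicate 2 (0.37). With 3 libraries per strain the deviations within a strain are tied to each other, so these values cannot decide whether the trials were paired. With the replicate block 0 family genes rose, 0 fell (spp-20 had an adjusted p of 0.0806), and 556 genes passed in all. Of the 11 other genes the block left lap-2 (0.119), kgb-1 (0.103), gana-1 (0.0854), ncr-1 (0.0797) and sma-2 (0.0678) above the threshold. Genes under about 1 CPM, such as spp-20, lys-5 and lys-6, rest on at most 24 counts per library, so the size of any change given for them is imprecise.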
